A study of Mus musculus with 6 samples.

Results

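The body of Ikzf1 and its downstream flank were described as the Ikzf1 promoter contacts them in CD4+/CD8+ (double-positive, DP) thymocytes. The members are the DpnII restriction fragments of mouse chromosome 11 (mm9) whose midpoint lies from 11603521 to 12083520, that is, from 20 kb to 500 kb downstream of the bait at 11583520. They are 1154 of the 295446 fragments listed for this library, and of 1928618 listed over the 6 libraries of the series. The choice used position alone and no read count. The stretch begins inside Ikzf1 (11585006-11672929, plus strand), and goes on through Fignl1 (11687434-11708965), Ddc (11714104-11798047) and Grb10 (11830511-11938686), all 3 on the minus strand.

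Each fragment has a raw read count from 4C-seq, in which chromatin is cross-linked, cut and ligated, and the fragments joined to a chosen bait are amplified and sequenced. The Ikzf1 bait was read in 1 library, from DP cells sorted with antibodies against CD4 and CD8a from the thymus of c57/Bl6 mice aged 4 weeks, with no treatment or allele named. The only other DP library, from the same strain and sort, has its bait at the Satb1 promoter and serves here for comparison, while the remaining libraries come from embryonic stem cells and cells derived from them and are not used. Counts of ligation products hold no expression of marker genes, so the identity of the cells rests on the sort. With 1 library there is no replicate error and no test was made. Intervals are exact binomial (Clopper-Pearson, 95%) and cover counting error only, since PCR copies cannot be told from separate ligations.

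Ikzf1 encodes Ikaros, a zinc finger transcription factor that is needed for lymphocyte development and is active in thymocytes. The contact frequency of a promoter normally falls with genomic distance, and genes and their regulatory elements often lie in domains whose parts contact each other more than sequence outside them. DP thymocytes are the stage at which T cell precursors carry both coreceptors, before they become CD4 or CD8 single-positive cells.

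The fragments with the most reads in the main stretches are given here with their sequence, as the highest single values behind the means described below. They are written from the plus strand of mm9, with the DpnII site (GATC) and the Csp6I site (GTAC, used for the second cut) in capitals. Fragments over 300 bases are shown by their first 150 bases from the lower coordinate. In the same order, they were read 8502, 4815, 3479, 3901 and 2200 times.
Ikzf1 intron 4 (chr11:11643516-11643665): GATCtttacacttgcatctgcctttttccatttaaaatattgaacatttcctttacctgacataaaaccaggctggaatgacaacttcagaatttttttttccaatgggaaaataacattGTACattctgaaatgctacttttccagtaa
Between Ikzf1 and Fignl1 (chr11:11674757-11674906): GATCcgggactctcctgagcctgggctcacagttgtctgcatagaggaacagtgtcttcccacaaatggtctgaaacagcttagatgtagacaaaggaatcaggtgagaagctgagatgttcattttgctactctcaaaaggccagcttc
Fignl1 intron (chr11:11690618-11690838): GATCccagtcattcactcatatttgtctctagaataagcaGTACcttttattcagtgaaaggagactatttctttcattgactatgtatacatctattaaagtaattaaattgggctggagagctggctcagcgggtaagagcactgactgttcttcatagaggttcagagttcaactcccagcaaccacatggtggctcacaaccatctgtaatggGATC
Ddc intron (chr11:11718306-11718455): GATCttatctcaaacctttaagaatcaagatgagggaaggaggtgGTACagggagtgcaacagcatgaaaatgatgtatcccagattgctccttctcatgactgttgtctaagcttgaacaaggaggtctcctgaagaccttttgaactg
Grb10 intron (chr11:11858605-11858754): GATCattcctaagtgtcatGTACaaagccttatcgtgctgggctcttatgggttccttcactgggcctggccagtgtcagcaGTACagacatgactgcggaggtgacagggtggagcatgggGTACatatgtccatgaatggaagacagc

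The deposited counts cover the chromosome of the bait only, and their 2314166 reads are thus the chromosome 11 reads of the library. Of these, 1705392 (73.7%) fell within 1.5 Mb of the bait, and 1 fragment held 5.37%. Its midpoint lies 0.03 kb from the bait coordinate. It is not a member, but its 124337 reads are counted among those within 1.5 Mb. The downstream members took 297918 reads, 17.5% of those within 1.5 Mb. At least 1 read was found on 413 of the 1154 members (35.8%, interval 33.0 to 38.6%), against 14.7% of all fragments within 1.5 Mb, a set that includes them. The reads were concentrated close to the gene, since 50% of them lay within 60.6 kb of the bait, 90% within 136 kb and 99% within 344 kb. A fragment can be counted only if a read from one of its ends can be placed, and 161 members had no end whose first 25 bases occur at a single GATC site of the genome. A read was found on 4 of these 161 (2.48%), against 409 of the 993 with such a unique end (41.2%).

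**Figure D1:**
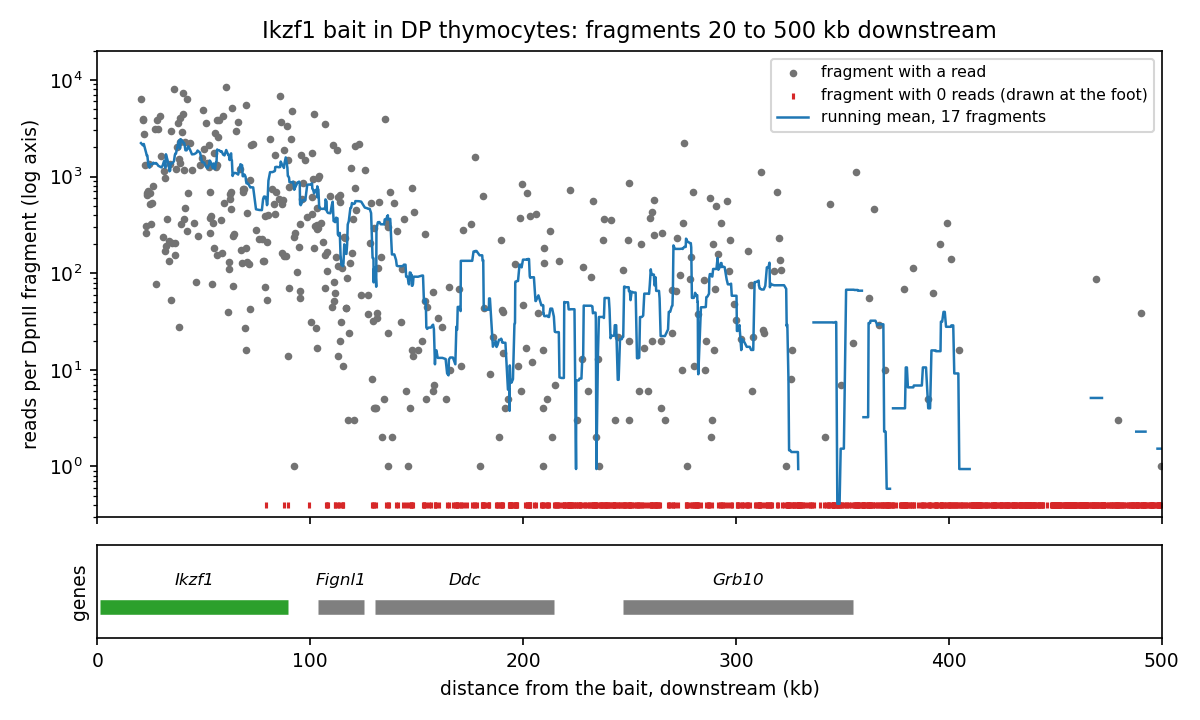
Reads per DpnII fragment (log axis) against distance downstream of the Ikzf1 bait in kb, with the running mean over 17 fragments and the genes below; red ticks at the foot are fragments with 0 reads. Nearly all fragments of Ikzf1 have reads (145 of 147), while 17 of 422 do past Grb10.

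The promoter contacted the whole remaining length of its own gene. From 20 kb to the 3′ end at 89.4 kb, 145 of 147 fragments had a read (98.6%, interval 95.2 to 99.8%), and together they held 12.4% of the reads within 1.5 Mb. Their mean was 1443 reads per fragment (SD over fragments 1779), with a lowest value of 0, a median of 676 and a highest of 8502. All 147 had a unique end, so their counts can be set against each other without that difference. At the same distance upstream, 110 of 122 fragments with a unique end had a read (90.2%), so a high share was not particular to the gene.

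Single fragments of the body differed widely. Over 1000 reads were found on 60 of the 147 and under 100 on 14. The highest, in intron 4 at 60.6 kb, held 4.01% of the reads of the body, the 5 highest 17.4% and the 20 highest 48.1%. The next were 8002 reads at 36.0 kb, 7227 at 40.5 kb and 6341 at 42.0 kb, all in intron 3, and 6735 on a fragment of 45 bp at 85.9 kb in the last exon. The pair with 0 reads lay at 79.4 kb, in an intron, and at 87.8 kb, in the untranslated part of an exon, and both had a unique end. Across the 147 fragments the reads had a Spearman rho of -0.23 with distance from the bait, 0.15 with fragment length and -0.04 with GC content. These describe neighbouring fragments of 1 library, which are not independent.

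By introns of the 9-exon transcript Ikzf1-002, the mean was 2075 reads over 10 fragments in intron 2 and 1632 over 74 in intron 3, the longest at 33.0 kb. It was 1387 over 16 fragments in intron 4, 1269 over 13 in intron 5, 944 over 6 in intron 6, 226 over 2 in intron 7 and 563 over 15 in intron 8. The means thus descended along the gene as far as intron 7. The 10 fragments that touch exon 9, the last, averaged 1443, above the means of the introns just before them. However, a single fragment held 6735 of their 14434 reads. Their median was 546, against 600.5, 226 and 398 in introns 6, 7 and 8. Fragments touching any Ikzf1 exon (n = 20, median 546) and those touching none (n = 127, median 680) had means of 1378 and 1453. Fragments with a Csp6I site (n = 71) averaged 2013 reads and those without (n = 76) 910, but per kb of sequence the order was the other way, with 2906 and 3373 reads.

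**Figure D2:**
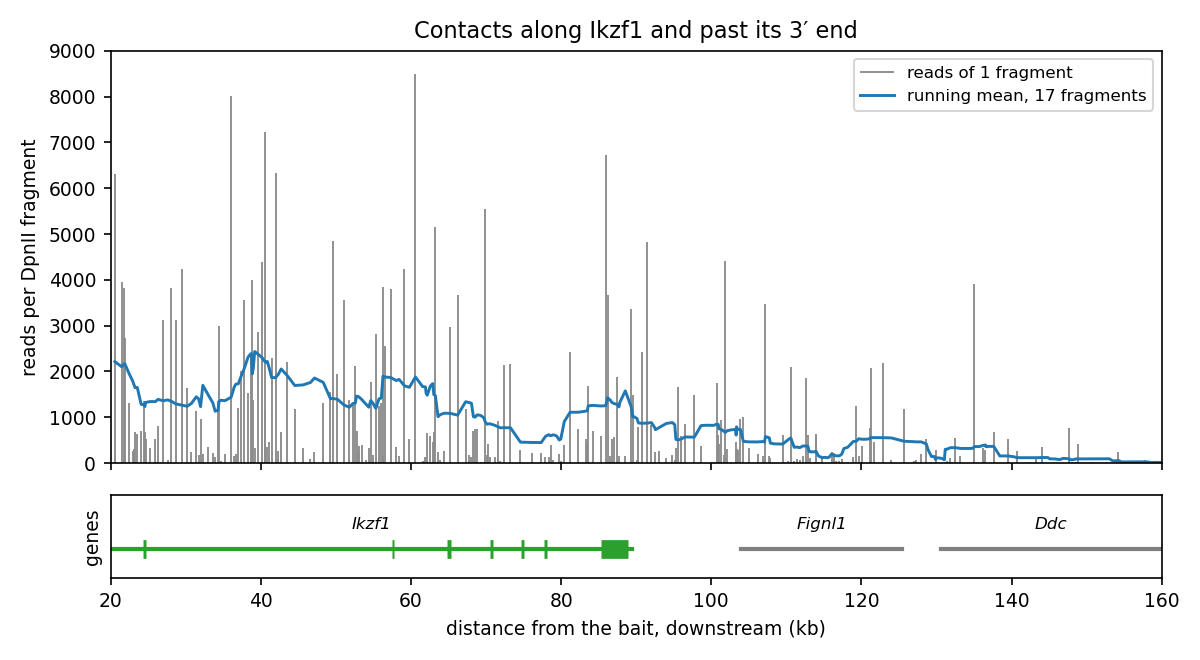
Reads of each DpnII fragment (grey lines) and running mean over 17 fragments (blue) from 20 to 160 kb downstream of the bait, with Ikzf1 exons as blocks. The running mean is highest at 39.2 kb, dips at 77.3 kb, and stands higher again at the last Ikzf1 exon, where a single fragment held 6735 reads.

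The running mean over 17 fragments had its top in the body at 39.2 kb, with 2435 reads, and its low at 77.3 kb, with 449. The place of the top was not stable. Odd-numbered fragments alone placed it at 39.2 kb and even-numbered ones at 60.6 kb, while running means over 31 and 55 fragments placed it at 23.0 and 20.6 kb, near the start of the stretch. The low lay at 79.7 kb in odd-numbered and 76.1 kb in even-numbered fragments, but at 73.3 kb over 31 fragments and at 89.3 kb, the end of the gene, over 55. In bins of 10 kb it appears as 436 reads per fragment at 70 to 80 kb (17 of 18 fragments with a read), between 1425 at 60 to 70 kb and 1246 at 80 to 90 kb.

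Contacts stepped down over the genes past the 3′ end. Between Ikzf1 and Fignl1, 35 of 37 fragments had a read, with a mean of 747 and a median of 312. Over Fignl1, which encodes an AAA ATPase with a role in homologous recombination, 42 of 52 fragments did (80.8%), with a mean of 398 and a median of 97.5. The body of Ikzf1 thus had 3.63 times the mean of Fignl1 and 1.93 times that of the gap between the genes.

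Past Fignl1 the mean fell further, and within Ddc fragments with a read became sparse. In the gap before Ddc, 9 of 12 had a read, with a mean of 195, and 1 fragment of 2599 bp that spans the 5′ exon of Fignl1 held 50.1% of those reads. Over Ddc, which encodes the decarboxylase that makes dopamine and serotonin, 79 of 170 fragments had a read (46.5%), with a mean of 95.0 and a median of 0. A single intronic fragment at 135 kb held 24.2% of the reads of Ddc. The gap between Ddc and Grb10 had reads on 18 of 87 fragments, with a mean of 31.4.

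Grb10, an imprinted gene for an adaptor protein that binds growth factor receptors, stood above the gap before it. Reads were found on 68 of its 227 fragments (interval 24.1 to 36.4%), against 18 of 87 in that gap (interval 12.7 to 30.7%). The intervals overlap. The mean over Grb10 was 59.6, and its running mean reached 228 reads at 277 kb, where the highest fragment held 2200 reads, 16.3% of the gene's total. Odd-numbered fragments placed this top at 277 kb and even-numbered ones at 291 kb. Past Grb10 to 500 kb, 17 of 422 fragments had a read (4.03%), with a mean of 6.51. None of the 146 fragments from 420 to 460 kb did, but only 68 of these had a unique end, for which the interval reaches 5.28%.

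Around the promoters of the 3 neighbours the means rested on few fragments. In the 10 kb centred on the start of Fignl1, at 125 kb, 15 of 18 fragments had a read and the mean was 438 (median 59), against a mean of 284 in the 10 kb on either side. At the start of Ddc, at 215 kb, 8 of 22 had a read and the mean was 33.2, against 49.1 beside it. At the start of Grb10, at 355 kb, 2 of 23 had a read and the mean was 49.5, against 22.7 beside it, with 1120 of the 1139 reads on 1 fragment. Of the other annotated genes in the stretch, 1700042O10Rik had reads on 15 of 40 fragments (mean 43.95), Gm12001 on 0 of 8, and no fragment midpoint fell within SCARNA4 or U1.

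The 3′ end of Ikzf1 itself was a shallow step. In the 30 kb before it the mean was 1097 reads (58 of 60 fragments with a read), and in the 30 kb after it 522 (69 of 81), so that the level before was 2.10 times that after. Over 14 kb, the width of the gap to Fignl1, the ratio was 1.28, and over 60 kb it was 3.33. At the far end of Fignl1 the same ratio was 2.77 over 30 kb, with 502 reads before and 181 after. Upstream, at the distance of the Ikzf1 3′ end, the mean rose instead, from 423 reads in the 30 kb before to 2280 in the 30 kb after. Over unique ends the upstream mean was 836 at 80 to 100 kb and 3007 at 100 to 120 kb.

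A larger fall lay farther on, within Ddc. From 20 to 140 kb the mean was 1002 reads, with 248 of 269 fragments read (92.2%), and from 140 to 240 kb it was 53.5, with 76 of 219 read, a ratio of 18.7. The nearer stretch held 90.4% of all reads of the members. Among boundaries from 50 to 250 kb, the ratio of the 30 kb before to the 30 kb after was greatest at 145 kb (293 and 42.4 reads, 6.93), and windows of 20 and 60 kb placed it at 154 and 138 kb, with ratios of 10.5 and 9.46. Over the full range of 50 to 470 kb the greatest ratio fell at 411 kb, where the 30 kb before averaged 14.8 reads and the 30 kb after held 0. Where at least 5 fragments after the boundary had to be read, it fell at 323 kb, with 70.6 reads before and 9.15 after, a ratio of 7.72. These places are the greatest of many boundaries, whereas the ratio at the 3′ end is for a fixed place.

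The sides of the bait were far from symmetric. From 20 to 500 kb the downstream side averaged 258 reads over 1154 fragments and the upstream side 585 over 1294, a ratio of 0.442, and the downstream side held 17.5% of the reads within 1.5 Mb against 44.4% upstream. Of 24 distance bins of 20 kb, the downstream mean was at least 2 times the upstream one in 4 and the reverse held in 11. Over all 74 such bins to 1.5 Mb the shares were 16.2% and 54.1%, so the upstream count (11 of 24) is not above this background.

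The difference lay between 100 and 240 kb. There the downstream side averaged 164 reads and the upstream side 1517, which is 9.23 times as many, and the upstream mean was at least 2 times the downstream one in 7 of 7 bins. Over fragments with a unique end the same 7 bins were called, and the upstream mean was 9.48 times the downstream one. The widest gap was at 180 to 200 kb, with 48.6 reads downstream and 1495 upstream. Fignl1 had 0.116 times the mean of the fragments at its distance upstream (398 and 3422 reads), where the noncoding gene Gm11998 lies, and Ddc 0.0780 times (95.0 and 1218). Among boundaries from 50 to 250 kb, the greatest upstream fall lay at 233 kb, inside Zpbp, with 789 reads before and 56.6 after in windows of 30 kb. Under this limit it was farther from the bait than the one within Ddc. Over the full range of 50 to 470 kb, the greatest falls lay at 411 kb downstream and 427 kb upstream. Where at least 5 fragments after the boundary had to be read, they lay at 323 kb downstream and 233 kb upstream. The order of the sides thus depended on the rule.

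**Figure D3:**
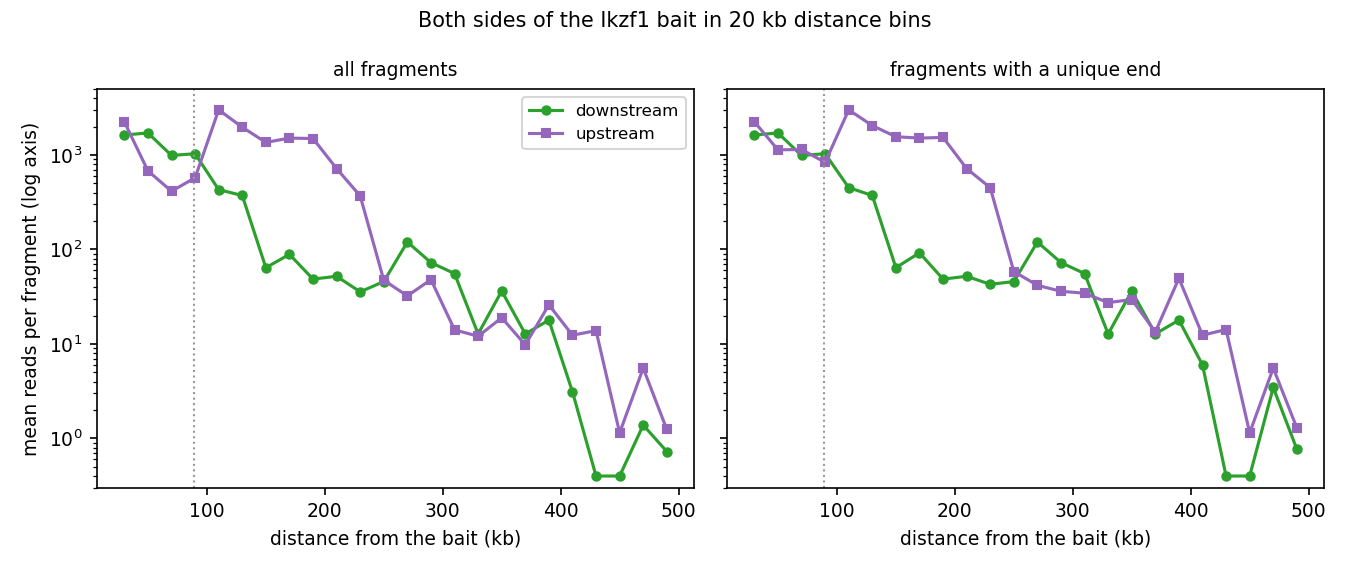
Mean reads per fragment (log axis) in 20 kb bins of distance from the bait, downstream (green) and upstream (purple), for all fragments (left) and those with a unique end (right); the dotted line marks the 3′ end of Ikzf1 and bins with 0 reads are drawn at the foot. The sides part between 100 and 240 kb in both panels, whereas the downstream side at 60 to 80 kb is 2.40 times the upstream one in the left panel and 0.866 times in the right.

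Closer in, the apparent downstream excess depended on which fragments were counted. From 20 to 100 kb, the span that holds the Ikzf1 body, the downstream mean was 1353 and the upstream mean 883, a ratio of 1.53. However, 169 of 169 downstream fragments had a unique end and only 150 of 247 upstream ones did. Over unique ends the means were 1353 and 1407, a ratio of 0.962, and per kb of sequence the ratio was 1.04. In the same way the body of Ikzf1 had 1.63 times the mean of the fragments at its distance upstream when all were counted, and 0.963 times over unique ends. Over unique ends the medians were also close, at 676 reads for the body and 642 for the fragments at its distance upstream.

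**Figure D4:**
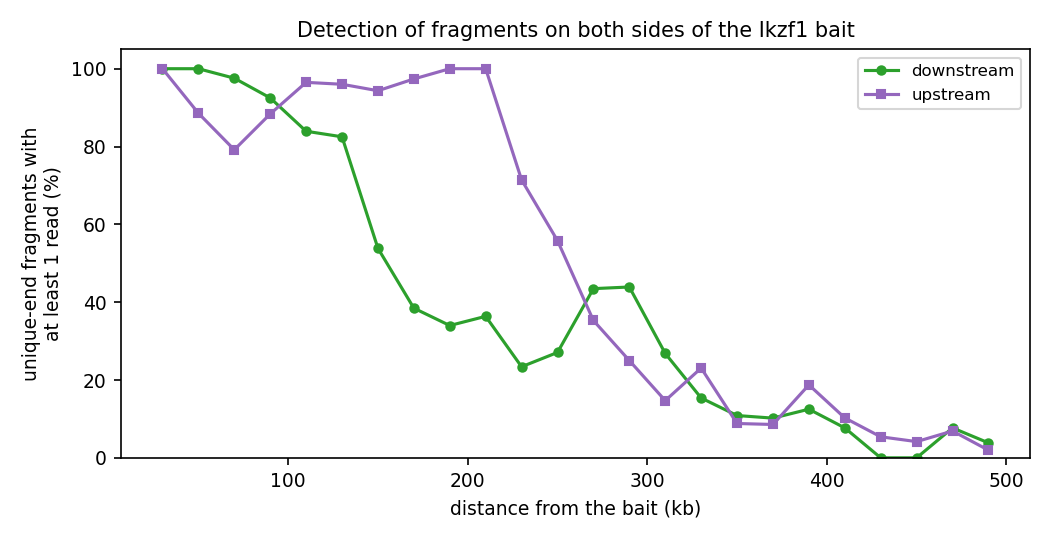
Percent of unique-end DpnII fragments with at least 1 read, in 20 kb bins of distance downstream (green) and upstream (purple) of the Ikzf1 bait. At 180 to 200 kb 34.0% were read downstream and 100% upstream, while at 280 to 300 kb the shares were 43.9% and 25.0%.

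From 240 to 500 kb neither side was higher throughout. The downstream mean was 25.2 and the upstream mean 19.1, but of 13 bins the downstream side was at least 2-fold higher in 2 and the upstream side in 4 (2 and 5 over unique ends). Both downstream bins lay between 260 and 320 kb, and the 4 upstream bins were those from 400 to 480 kb. Over unique ends other bins were called. The downstream ones were those from 260 to 300 kb, and the 5 upstream ones lay at 320 to 340 kb and from 380 to 460 kb. In the bins at 420 to 440 and 440 to 460 kb the upstream side had only 2 fragments with a read each, against 0 reads downstream. At 260 to 280 kb, within Grb10, the downstream side had 120 reads per fragment and the upstream side 32.3, and over unique ends 120 and 41.8. From 0.5 to 1.5 Mb the means were 1.47 downstream and 5.73 upstream.

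The Satb1 bait in DP thymocytes gave another gene of similar length for comparison. Satb1 encodes a chromatin-binding protein of thymocytes, and its 3′ end lies 86.5 kb from its bait, against 89.4 kb for Ikzf1. The baits, chromosomes and read lengths differ and each has 1 library, so the values are only set side by side. Scaled to 1000000 reads within 1.5 Mb, the body from 20 kb averaged 846 reads per fragment for Ikzf1 and 490 for Satb1, and the 50 kb past the 3′ end 275 and 77.4. The body thus had 3.07 times the level past the end for Ikzf1 and 6.32 times for Satb1. Across the 3′ end the 30 kb ratio was 2.10 for Ikzf1 and 4.30 for Satb1, and among boundaries from 50 to 250 kb the greatest fall over 30 kb lay 145 kb from the bait for Ikzf1, past the gene, and 76.9 kb for Satb1, within it. Over all boundaries to 470 kb it lay at 411 kb for Ikzf1 and still at 76.9 kb for Satb1. In the 50 kb past the 3′ end, both baits had fewer reads than at the same distance on the opposite side. The ratio was 0.220 for Ikzf1 and 0.254 for Satb1, and 0.214 and 0.290 over unique ends.

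**Figure D5:**
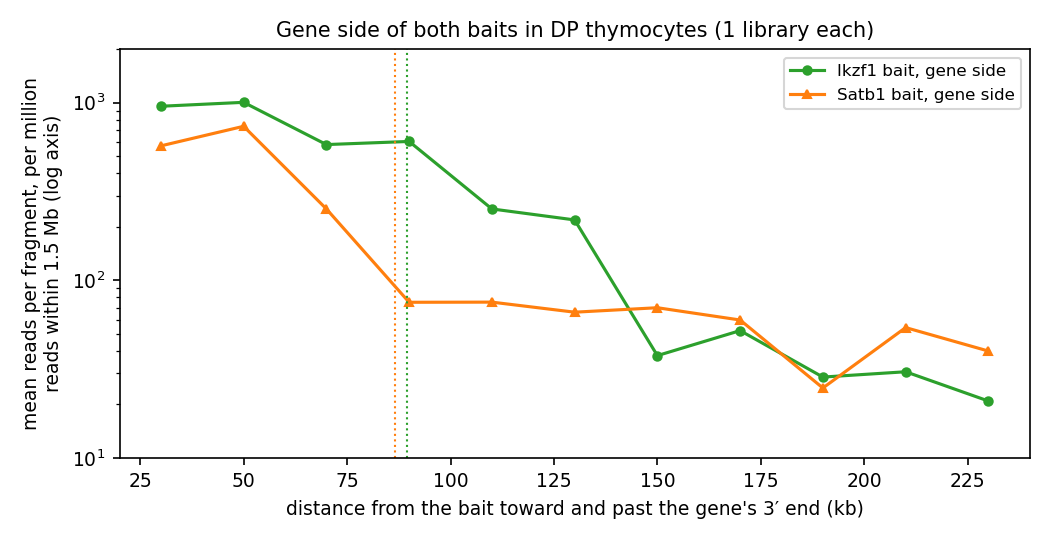
Mean reads per fragment, scaled to 1000000 reads within 1.5 Mb (log axis), in 20 kb bins on the gene side of the Ikzf1 bait (green) and the Satb1 bait (orange), 1 library each, with dotted lines at the 3′ ends. At 80 to 100 kb the Ikzf1 bait has 605 and the Satb1 bait 75.2, and at 140 to 160 kb they have 37.6 and 70.0.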

How the data were processed

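The deposited values are raw read counts per DpnII fragment. The authors removed the bait sequence during demultiplexing (leaving 25 bases for Ikzf1), aligned the remainder to mm9 and assigned reads to fragments; bcl2fastq and Bowtie 1.0.0 are named in the submitters' processing notes. Their guide describes a filter on fragments with a large share of all reads. Whether it was applied could not be checked, since the counts used here cover only the chromosome of the bait. The labels give 0.4% SDS for nuclear permeabilization, and the methods give a higher concentration for DP cells. No normalization and no removal of PCR duplicates was applied to the counts.

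Midpoints were matched to DpnII fragments of the mm9 sequence and to GENCODE vM1 genes. Counts were summarised in Python 3.11.15 with numpy 2.4.6 and scipy 1.17.1. In distance bins a side with under 3 reads was set at 3 reads. The scan for the steepest fall was tested on 20 simulated profiles on this library's map of 295446 fragments, each with a 10-fold fall. It placed the fall with a median error of 0.409 kb (largest 4.35 kb). The simulated levels were flat on either side of the fall, with few fragments without a read. The real counts decline with distance and are sparse past 140 kb, so this error does not describe the places given here. Named are the genes overlapping the stretch, those at the mirrored distances upstream where a value is given, the 5 highest fragments of the Ikzf1 body and the highest of the other segments. The members and lists were chosen with earlier results of these data known. Alternatives covered medians, detection, a cap on high counts, fragment classes, window and bin widths and the excluded zone around the bait. The separate distance ranges, the limits on the scan, bins of unique ends, and leaving out top fragments or the upstream stretch at 100 to 140 kb were chosen after seeing the data. The other 4 libraries were not used.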

Additional observations from a re-analysis of the deposited data

How the results depend on the processing

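No paired analysis was possible because the Ikzf1 bait has 1 library and no result comes from a test. Of 58 alternatives, 11 moved a value by less than its counting error, a count of bins by less than 1.5 times or a distance by less than 10 kb, 46 moved one by more, and 1 turned a direction. Downstream over upstream was 1.53 at 20 to 100 kb alone, against 0.442 from 20 to 500 kb. That ratio was 0.962 there over unique ends, and 0.108 (unique ends 0.106) at 100 to 240 kb. From 20 to 500 kb it was 0.374 by medians of read fragments, 0.856 by the share read, 0.479 with capped counts, 0.474 with a GTAC site, 0.395 over unique ends and 0.394 per kb. It was 0.484 and 0.412 with 15 and 30 kb around the bait left out, and 0.634 without the upstream fragments at 100 to 140 kb.

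In the same order of settings (medians, share read, cap, GTAC, unique ends, per kb), Ikzf1 over Fignl1, 3.63 as reported, was 4.45, 1.22, 3.33, 3.45, 3.43 and 2.98, and 3.50 without the highest fragment. The fall at the 3′ end, 2.10 as reported, was 1.88, 1.13, 1.87, 1.51, 2.02 and 1.56. It was 1.28 over 14 kb, 3.33 over 60 kb and 1.86 without the highest fragment before the end. Ikzf1 over Satb1, 1.73 as reported, was 1.55 by medians, 1.04 by the share read, 1.63 with GTAC, 1.80 per kb and 1.53 scaled to all reads of each file.

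Bins at least 2-fold higher downstream, 4 of 24 as reported, numbered 12 of 48 at 10 kb, 1 of 10 at 50 kb and 2 of 24 over unique ends. Bins higher upstream, 11 of 24 as reported, numbered 22 of 48 at 10 kb and 6 of 10 at 50 kb. The last 50 kb bin reached 520 kb. The tally of alternatives compared these counts and not their shares, so a change of bin width alone can enter it as a move. The greatest fall, at 411 kb as reported, lay at 321 kb by medians, 323 kb with at least 5 read fragments after it, and 145 kb with GTAC fragments or at 50 to 250 kb. The top in the body, at 39.2 kb as reported, lay at 23.0 and 20.6 kb over 31 and 55 fragments and at 60.6 kb in even fragments. The windows at 23.0 and 20.6 kb took in fragments near the bait that are not members, though the tally counts both as moves. The share of members with a read was 41.2% over unique ends. The causes of these shifts were not tested. Past 140 kb most fragments have no read, so places of falls and tops there rest on few fragments.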
